A study of Homo sapiens with 4 samples.

Results

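The zinc finger genes of chromosome 19 were described here in human cells that kept or lost cohesin. They were taken as every protein-coding gene of chromosome 19 in the deposited table whose symbol is ZNF followed by a digit, whatever its signal. The rule found 250 genes among 60048 in the table. Another 265 ZNF genes lie on other chromosomes, and 1219 other protein-coding genes lie on chromosome 19. Nascent RNA had been measured by EU-seq in HCT116, an established human colorectal carcinoma line, of genotype RAD21-mAC: RAD21, a core subunit of the cohesin ring, carries a degron that lets auxin trigger destruction of the protein. Every library came from this same genotype. The control group (2 libraries) received DMSO, and the auxin group (2 libraries) was kept in 0.5 mM of the auxin IAA over 3 h, which removes RAD21 protein. Cells of both groups took up 5-ethynyl uridine at 0.5 mM for 20 min, so that RNA made in that time could be captured and sequenced. The labels do not say whether the 2 libraries of a group came from separate cultures or clones, so p-values measure only the spread between these libraries, which may be technical.

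Most ZNF genes encode proteins with a row of C2H2 zinc fingers, small modules held together by a zinc ion that together read a stretch of DNA. Many of those on chromosome 19 also carry a KRAB domain, which recruits the co-repressor TRIM28 and, through it, the histone methyltransferase SETDB1. These proteins are best known for silencing transposable elements. The genes arose by repeated tandem duplication and lie side by side in clusters, and the clusters are themselves covered by heterochromatin marks in many cell types. Cohesin extrudes chromatin loops until it meets CTCF, which is why genes that sit in a cluster are a natural set for comparing neighbours after its loss.

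The table held a scaled signal per gene and library, not read counts, so the depth in reads was unknown and values carry no counting interval. Deposited totals ran from 61135244 to 93113007 per library, and the values given here were set on one scale with factors between 0.816 and 1.21, which takes out any global rise or loss of nascent RNA. In bulk libraries fewer cells and less RNA per cell cannot be told apart. RAD21 itself, whose protein and not RNA is the target of the degron, gave overlapping groups (5154 and 7190 in control, 5893 and 6264 in auxin), so RNA does not check the labels. All 8 epithelial markers of a fixed list were present, at 22.4 to 2063 of scaled signal per kb of span, against 0.0775 to 45.6 for 6 markers of other cell types, the highest of which was COL1A1 and the lowest COL1A2, and none was at 0 in every library. Summed over each list, epithelial markers gave 62259 and 69763 in control and 61704 and 64044 in auxin, and the others 824 and 984 in control and 1153 and 1303 in auxin. Most of the latter sum is COL1A1 (577 and 732 in control, 893 and 998 in auxin). Of the other 5, COL1A2 and PECAM1 were higher and CD3E lower in both auxin libraries, and PTPRC and ALB overlapped. Of the 8 epithelial markers, 6 were lower in both auxin libraries, beside 19.6% of all genes, and 2 higher, beside 18.6%. None passed the test. By limma 3 of 8 had an unadjusted p under 0.05, 2 of them lower, beside 10.2% of all genes. The lowest limma adjusted p of the list was 0.0578, for CDH1, with 11060 and 11199 in control and 16109 and 16554 in auxin. The part of these marker differences in the results below was not tested.

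Promoters of 5 genes are shown first because these genes lead the results: ZNF699, the only ZNF gene of chromosome 19 that passed the test, ZNF823 and ZNF791 from the run of neighbours whose summed signal was highest with auxin relative to control, and ZNF566 and ZNF567 from the run whose summed signal was lowest. Each line gives the 150 bases before the RefSeq start site (GRCh38.p14), 5′ to 3′ on the gene's strand. Capitals mark matches to the motifs searched.
ZNF699: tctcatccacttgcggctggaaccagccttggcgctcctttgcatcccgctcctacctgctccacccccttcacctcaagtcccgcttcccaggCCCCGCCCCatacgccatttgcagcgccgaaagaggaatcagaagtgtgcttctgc
ZNF823: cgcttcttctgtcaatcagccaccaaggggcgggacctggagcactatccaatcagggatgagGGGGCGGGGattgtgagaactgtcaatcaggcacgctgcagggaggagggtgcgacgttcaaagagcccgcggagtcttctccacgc
ZNF791: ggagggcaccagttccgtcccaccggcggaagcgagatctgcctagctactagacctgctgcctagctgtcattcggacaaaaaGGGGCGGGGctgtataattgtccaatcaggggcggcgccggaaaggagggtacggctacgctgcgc
ZNF566: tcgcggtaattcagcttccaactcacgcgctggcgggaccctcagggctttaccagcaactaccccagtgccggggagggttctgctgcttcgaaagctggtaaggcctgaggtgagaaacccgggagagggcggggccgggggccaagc
ZNF567: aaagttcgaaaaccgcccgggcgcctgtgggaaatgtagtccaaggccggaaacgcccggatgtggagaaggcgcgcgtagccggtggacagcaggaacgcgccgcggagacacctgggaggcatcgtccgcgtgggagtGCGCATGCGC
The windows are chr19:9309839-9309988 (ZNF699, minus strand), chr19:11738947-11739096 (ZNF823, minus), chr19:12610770-12610919 (ZNF791, plus), chr19:36489436-36489585 (ZNF566, minus) and chr19:36687462-36687611 (ZNF567, plus). The first 3 hold the SP motif GGGGCGGGG on one strand or the other, and the last holds the NRF1 motif at its 3′ end. ZNF566 holds no motif of the set in this window.

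The genes differed widely in how much they were transcribed. Their spans, introns included, ran from 1.71 kb to 215 kb with a median of 21.8 kb, and 134 lie on the plus strand and 116 on the minus strand. Of the 250 genes, 205 (82.0%) had a mean scaled signal of at least 50, as did 80.5% of all protein-coding genes. A filter on low values left 245 for testing. The 5 others, ZNF676, ZNF229, ZNF582, ZNF71 and ZNF256, never exceeded 11.9 in any library. Per kb of span the tested genes had a median scaled signal of 42.5, with the middle part of the distribution from 3.11 to 115 (25th to 75th percentile). That median was 123.75 in the other protein-coding genes of chromosome 19 and 74.5 in ZNF genes of other chromosomes.

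The highest levels per kb belonged to ZNF121 (675 per kb), ZNF787 (617 per kb) and ZNF580 (549.8 per kb). ZNF121 had 15626 and 18792 of scaled signal in control and 14992 and 15855 in auxin, so its groups overlapped. ZNF787 had 22449 and 19558 in control and 21526 and 20175 in auxin, also overlapping. ZNF580 is the shortest of the genes and overlaps ZNF581 in the table, whose values do not separate genes that overlap; it had 954 and 947 in control and 909 and 944 in auxin, log2 fold change -0.036. The lowest levels per kb among tested genes were those of ZNF536 (0.419 per kb), a repressor of neuronal differentiation and the longest gene of the set, ZNF471 (0.570 per kb) and ZNF66 (0.584 per kb). All 3 had overlapping groups, at 70.6 to 120.2 of scaled signal for ZNF536, 3.39 to 17.4 for ZNF471 and 15.7 to 24.96 for ZNF66.

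Of the ZNF genes chosen for what is known of them, none passed the test. ZNF91, a repressor of SVA and LINE-1 elements, had 1907 and 1630 in control and 2074 and 2114 in auxin, which is a log2 difference of 0.25 (limma adjusted p = 0.711, SE 0.16). Its auxin libraries lay above its control libraries. ZNF274, which brings SETDB1 to the 3′ ends of other ZNF genes, had 2302 and 1692 in control and 2372 and 2374 in auxin, which is a log2 difference of 0.27 (limma adjusted p = 0.729, SE 0.18). Here too the auxin libraries were the higher ones, and the control libraries were far apart. Without control replicate 2 its log2 fold change was 0.044. ZNF146, a protein made almost wholly of fingers and without a KRAB domain, had 13314 and 14306 in control and 12298 and 11959 in auxin, which is a log2 difference of -0.19 (limma adjusted p = 0.676, SE 0.11). ZNF146 was lower in both auxin libraries. ZNF83 reached 9453 and 10082 in control and 8460.5 and 10018 in auxin, with overlapping groups. ZNF43 and ZNF208, long genes of the cluster that ends at ZNF91, were little transcribed, at 78.6 to 106 and 25.8 to 56.8 of scaled signal over the libraries.

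Auxin was compared with control for each gene with limma on the log2 scale of the scaled signal plus 1, and p-values were adjusted over all 39464 genes tested. A log2 fold change on this scale understates the change of low genes. Of the 245 tested ZNF genes, 1 (0.408%) had an adjusted p under 0.05, a share beside the 0.732% of all genes tested. At an unadjusted p under 0.05 there were 22 ZNF genes (8.98%), 14 higher and 8 lower with auxin, against 10.2% of all genes. Both auxin libraries lay above both control libraries for 61 ZNF genes (24.9%), against 18.6% of all genes. They lay below for 39 (15.9%), against 19.6% of all genes. For the remaining 145 the groups overlapped.

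The median log2 fold change of the 245 genes was 0.014, with 132 above 0, and the 25th and 75th percentiles were -0.16 and 0.24. It was -0.00092 over 1151 other protein-coding genes of chromosome 19 and 0.014 over 254 ZNF genes of other chromosomes. Over all genes it was 0.0089, and over all protein-coding genes -0.011. The per-library median of log2 scaled signal over the ZNF genes was 9.55 and 9.38 in control and 9.57 and 9.37 in auxin. Replicate 1 lay above replicate 2 in each group by more than the groups differed (two-sided exact permutation p = 1, where 2 libraries against 2 allow no p below 0.333). Relative to the other protein-coding genes of chromosome 19 the median lay 1.18 and 1.12 lower in control and 1.17 and 1.14 lower in auxin on the log2 scale, again with overlapping groups (exact permutation p = 1). Relative to ZNF genes of other chromosomes, the difference moved by -0.020 from control to auxin (exact permutation p = 0.667).

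Most changes were small. Of the 245 genes, 224 had a log2 fold change under 0.5 in size, and 2 reached 1 in size, both with a mean scaled signal below 50. Across the genes the SD of the log2 fold change was 0.30. The 2 control libraries differed by a log2 value with an SD of 0.42 and the 2 auxin libraries by one with an SD of 0.36; divided by the square root of the number of libraries in a group, to match a difference between group means, these were 0.298 and 0.253. Over all 245 genes the change between groups was therefore about as wide as the replicates alone gave. This did not hold for the 205 whose mean reached 50. Their log2 fold change had an SD of 0.26. Their replicate differences had SDs of 0.28 in control and 0.30 in auxin before that division. Divided in the same way, both replicate values fall below 0.26. This was not particular to these genes. Over all genes whose mean reached 50 the SD was 0.33, beside undivided replicate SDs of 0.41 in control and 0.35 in auxin. Over ZNF genes of other chromosomes it was 0.295, beside 0.289 and 0.251. There too the divided replicate values fall below the SD of the log2 fold change. This contrast was not tested. The median standard error was 0.20, and 0.19 among the 205 with a mean of at least 50.

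ZNF699 (ENSG00000196110, minus strand, chr19:9291140-9309838), a zinc finger gene of the run that starts at ZNF317, rose. Its scaled signal was 750.2 and 864 in control and 1446 and 1651 in auxin. Every auxin value exceeded every control value, and the means were 807 ± 80.2 and 1548 ± 145 (SD, n = 2 each). On the log2 scale it was higher by 0.94, or 1.92-fold (limma adjusted p = 0.0464, SE 0.18). It lay close to the threshold: leaving out control replicate 1 gave an adjusted p of 0.0912, leaving out control replicate 2 gave 0.0587, and leaving out auxin replicate 2 gave 0.189. Log2 fold changes stayed between 0.84 and 1.04 with a library left out. The gene's span overlaps that of AC011451.1, so part of its signal may be counted for either gene.

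No other ZNF gene of chromosome 19 passed, and the next lowest adjusted p-values were 0.0870 and 0.119. The first belonged to ZNF823, with 2159 and 1655 in control and 3326 and 3121 in auxin, a log2 fold change of 0.77 (SE 0.17). The groups were apart by more than either pair of replicates. Without control replicate 1 its adjusted p was 0.0303, with a log2 fold change of 0.97. The second belonged to ZNF566, with 4428 and 4132 in control and 3007 and 2626 in auxin, a log2 fold change of -0.61 (SE 0.15). Here every auxin value was below every control value.

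Other genes whose libraries separated were taken by rule, as the largest differences where the mean signal reached 50. On the higher side were ZNF233 with 305 and 279 in control and 449.7 and 479 in auxin, ZNF69 with 106 and 103 against 152 and 174, ZNF776 with 1000.3 and 857 against 1411 and 1381, and ZNF419 with 52.5 and 66.5 against 75.8 and 89.8. Their log2 fold changes were 0.67, 0.63, 0.59 and 0.47, and their limma adjusted p-values ran from 0.202 to 0.720. On the lower side were ZNF433 with 50.9 and 73.7 in control against 41.9 and 35.9 in auxin, ZNF296 with 2972 and 2604 against 2184 and 1698, ZNF442 with 75.4 and 64.5 against 60.6 and 41.5, ZNF584 with 1974 and 1657 against 1374 and 1269, and ZNF551 with 2494 and 2549 against 1757 and 1943. Their log2 fold changes were -0.64, -0.53, -0.47, -0.45 and -0.45, and their limma adjusted p-values ran from 0.262 to 0.762. In all 9 the auxin and control libraries did not overlap, but none passed the test over all genes. ZNF296 and ZNF551 are well transcribed, whereas ZNF433 and ZNF442 carry little signal and wide standard errors (0.36 and 0.34). ZNF233 lies wholly within the span of ZNF235, which was also higher (2086 and 2119 in control, 2417 and 2711 in auxin). The values do not separate these overlapping genes, so the rise of ZNF233 may be that of ZNF235. ZNF823, ZNF776, ZNF419, ZNF433 and ZNF551 also overlap other tested genes.

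**Figure D1:**
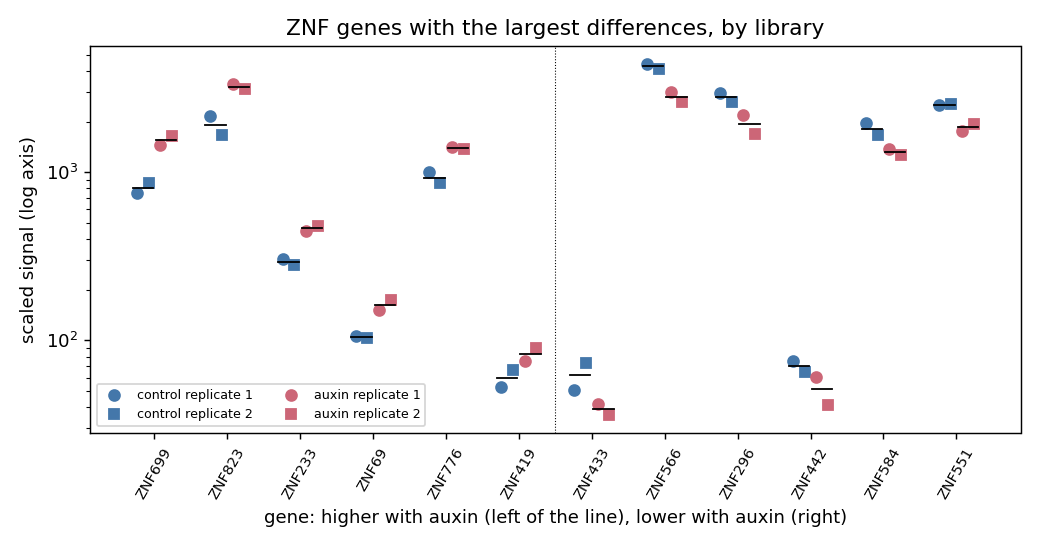
Scaled signal (log axis) of the 12 ZNF genes with the largest differences where the mean reached 50 and the groups were separate. Points are libraries, bars are group means. The left side holds the genes that were higher with auxin, from ZNF699 at 750.2 and 864 in control against 1446 and 1651 in auxin, and the right side the lower ones; ZNF699 alone had an adjusted p under 0.05.

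Neighbours were compared next. Taken in order of start, genes separated by at most 250 kb were joined into runs, and 12 runs of at least 5 genes held 229 of the 250. The signal of all genes of a run was summed in each library. For 8 runs the control and auxin sums overlapped, for 3 the auxin sums were both higher, and for 1 they were both lower. Over all genes, taken singly, both auxin libraries lay above both control libraries in 18.6% and below in 19.6%. The count of separate runs is therefore given as a description only. The log2 ratio of the mean sums ran from -0.19 to 0.27. In 10 of the 12 runs the replicates of at least 1 group differed from each other by a larger log2 ratio than the groups did. This count takes the larger of the 2 replicate differences and does not divide it to match a difference between group means. It therefore makes the replicates look wider than a matched comparison would. With 2 libraries against 2, no run could reach an exact permutation p below 0.333.

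The run with the highest ratio spans ZNF653 to ZNF791 (26 genes, chr19:11483429-12633834). Its summed signal was 30362 and 26308 in control and 34710 and 33844 in auxin. The auxin sums were both higher, with means of 28335 ± 2867 and 34277 ± 613 (SD, n = 2 each), a log2 ratio of 0.27 (two-sided exact permutation p = 0.333). The control replicates differed by a log2 ratio of -0.21, which is smaller. Its control sum is the less certain side: without control replicate 2 the log2 ratio was 0.17, and without control replicate 1 it was 0.39. Within the run 20 of 26 genes had a log2 fold change above 0, with a median of 0.25, and all 9 genes whose mean reached 1000 were among them. An unadjusted p under 0.05 was found for 5 of 26, all higher, beside 10.2% of all genes: ZNF627, ZNF823, ZNF69, ZNF490 and ZNF791. The run was picked for its ratio, so nothing is read from this count. None had an adjusted p under 0.05. ZNF627 had 4248 and 3458 in control and 4984 and 4885 in auxin. ZNF791 had 5032 and 4739 in control and 6033 and 6386 in auxin, and ZNF490, its neighbour on the opposite strand, 1683 and 1435 against 2061 and 2101. In each of these 3 the auxin libraries were the higher ones. ZNF653, at the other end, did not share this, with 3766 and 3365 in control and 3795 and 3424 in auxin. Without ZNF823, a choice made after the values were seen, the log2 ratio of the run was 0.23 and its auxin sums were still the higher ones.

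The 12 tested protein-coding genes within the same interval that are not ZNF genes had a median log2 fold change of -0.081, with 4 above 0 and 8 below. The 25 tested non-coding genes there had a median of 0.052, with 17 above 0. The difference between these and the ZNF genes was not tested.

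The run with the lowest ratio spans ZNF565 to ZNF573 (27 genes, chr19:36182294-37779586). Its summed signal was 34298 and 34557 in control and 30808 and 29437 in auxin. The auxin sums were both lower, with means of 34428 ± 183 and 30123 ± 969 (SD, n = 2 each), a log2 ratio of -0.19 (two-sided exact permutation p = 0.333). Replicates differed by log2 ratios of 0.011 in control and -0.066 in auxin. The run drew 60.5% of its signal from ZNF146, ZNF566 and ZNF565. Of its 27 genes 20 had a log2 fold change below 0, with a median of -0.13. The 5 of 27 at an unadjusted p under 0.05, beside 10.2% of all genes, were all lower: ZNF565, ZNF566, ZNF567, ZNF850 and ZNF570. This run too was picked for its ratio. None had an adjusted p under 0.05. ZNF565 had 3286 and 3461 in control and 2807 and 2536 in auxin, and overlaps ZNF146 head to head. ZNF567 had 2904 and 3281 in control and 2375 and 2412 in auxin, and ZNF850 had 678 and 672 against 489 and 521. In all 3 the auxin libraries were the lower ones. Of the 7 genes with a mean of at least 1000, 1 had a log2 fold change above 0, ZNF383, with 2588 and 2273 in control and 2755 and 2752 in auxin. Without ZNF566, a choice made after the values were seen, the log2 ratio of the run was -0.14, and the auxin sums remained below the control sums. The 5 other tested protein-coding genes of the interval had a median of 0.014. The 22 tested non-coding genes there had a median of 0.10, with 15 above 0 and 7 below. Restricted to its 11 ZNF genes with no overlapping tested gene, the run had a log2 ratio of -0.38. That set leaves out ZNF146, ZNF565, ZNF383 and ZNF585B. Its highest mean signals are those of ZNF566 (3548) and ZNF567 (2743), both lower with auxin, so this ratio rests largely on them.

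These 2 runs were singled out after their values were seen. The ratio of the first to the second within each library needs no scaling between libraries. Its log2 value was -0.18 and -0.39 in control and 0.17 and 0.20 in auxin, so the first run was the smaller one in both controls and the larger one with auxin. Since they were picked as the highest and the lowest of the 12, the difference of 0.47 between the groups follows from that choice and is given as a description only.

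**Figure D2:**
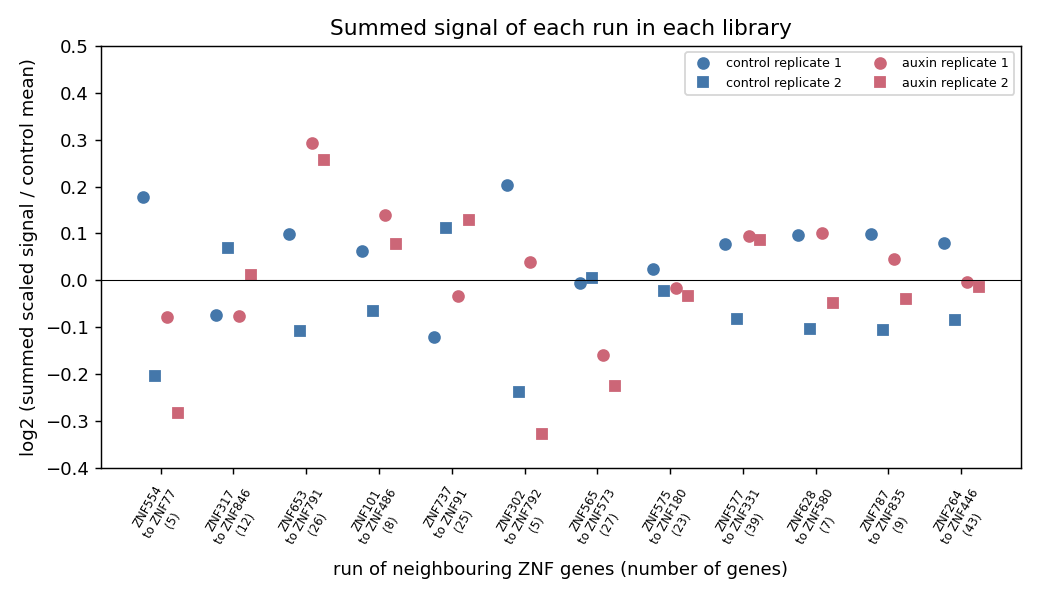
Summed scaled signal of each run of at least 5 ZNF genes in each library, as log2 of its ratio to the control mean of that run. Auxin and control libraries are apart in 4 of the 12 runs. The widest gaps are in ZNF653 to ZNF791 (log2 ratio 0.27) and ZNF565 to ZNF573 (log2 ratio -0.19). In 10 of the 12 the replicates of at least 1 group lie further apart than the group means, with replicate differences not scaled to match.

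Of the other runs, ZNF577 to ZNF331 (39 genes) and ZNF101 to ZNF486 (8 genes) also had both auxin sums above both control sums. The former gave 67555 and 60402 in control and 68308 and 67959 in auxin, a log2 ratio of 0.091, which was 0.012 without control replicate 2 and 0.15 over its 21 genes with no overlapping tested gene. It had 26 of 39 genes above 0 and a median log2 fold change of 0.12. An unadjusted p under 0.05 was found for 3 of 39, a smaller share than the 10.2% of all genes, and all 3 were higher: ZNF808 (4108 and 3776 in control, 4711 and 5096 in auxin), ZNF611 (3283 and 2851, 3812 and 4138) and ZNF160 (5015 and 4351, 5523 and 6197). At its end lies ZNF331, an imprinted gene, with 110.2 and 136 in control and 109.7 and 101 in auxin. The run from ZNF101 gave 6285 and 5758 in control and 6633 and 6358 in auxin, and 93.5% of its signal came from ZNF101, ZNF506 and ZNF14. Its log2 ratio of 0.11 was 0.047 without control replicate 2 and 0.21 over its 5 genes free of such overlaps.

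The largest run, ZNF264 to ZNF446 (43 genes), had sums of 90048 and 80426 in control and 84972 and 84462 in auxin. The auxin values lay between the control values, with 23 of 42 tested genes above 0 and a log2 ratio of -0.0088. Single genes within that sum lay apart between groups: ZNF264 (8115 and 7138 in control, 9609 and 9613 in auxin) and ZNF776 were higher, and ZNF551 and ZNF584 were lower, in both auxin libraries. The run from ZNF737 to ZNF91 (25 genes) had 26039 and 30608 in control and 27670 and 30981 in auxin. Its groups overlapped, with 13 of 24 tested genes above 0. ZNF708 in it had 2877 and 2890 in control and 3474 and 3946 in auxin, its only gene at an unadjusted p under 0.05. In the run of ZNF699, from ZNF317 to ZNF846 (12 genes), the sums were 42633 and 47084 in control and 42526 and 45205 in auxin, and 6 of 12 genes were above 0. The summed signal of the run thus did not shift beyond its replicates while ZNF699 rose. Since 79.0% of that sum came from ZNF121, ZNF562 and ZNF317, it says little of the other genes next to ZNF699.

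The remaining runs overlapped between groups. ZNF554 to ZNF77 (5 genes) had 7118 and 5461 in control and 5958 and 5169 in auxin, with all 5 genes below 0. ZNF302 to ZNF792 (5 genes) had 2493 and 1837 in control and 2224 and 1726 in auxin. ZNF575 to ZNF180 (23 genes) had 18597 and 18002 against 18102 and 17876, and includes ZNF233 and ZNF180 (4291 and 4480 in control, 3633 and 3910 in auxin). Replicate 1 was above replicate 2 in each group in these 3 runs and in those that start at ZNF628 and ZNF787. The same held for the runs that start at ZNF653, ZNF101, ZNF577 and ZNF264. ZNF628 to ZNF580 (7 genes) had 13909 and 12112 against 13953.5 and 12573.5, and ZNF787 to ZNF835 (9 genes) had 26014 and 22558 against 25063 and 23610. In the last, 99.8% of the signal came from ZNF787, ZNF444 and ZNF667, so its sum says little of its other genes.

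**Figure D3:**
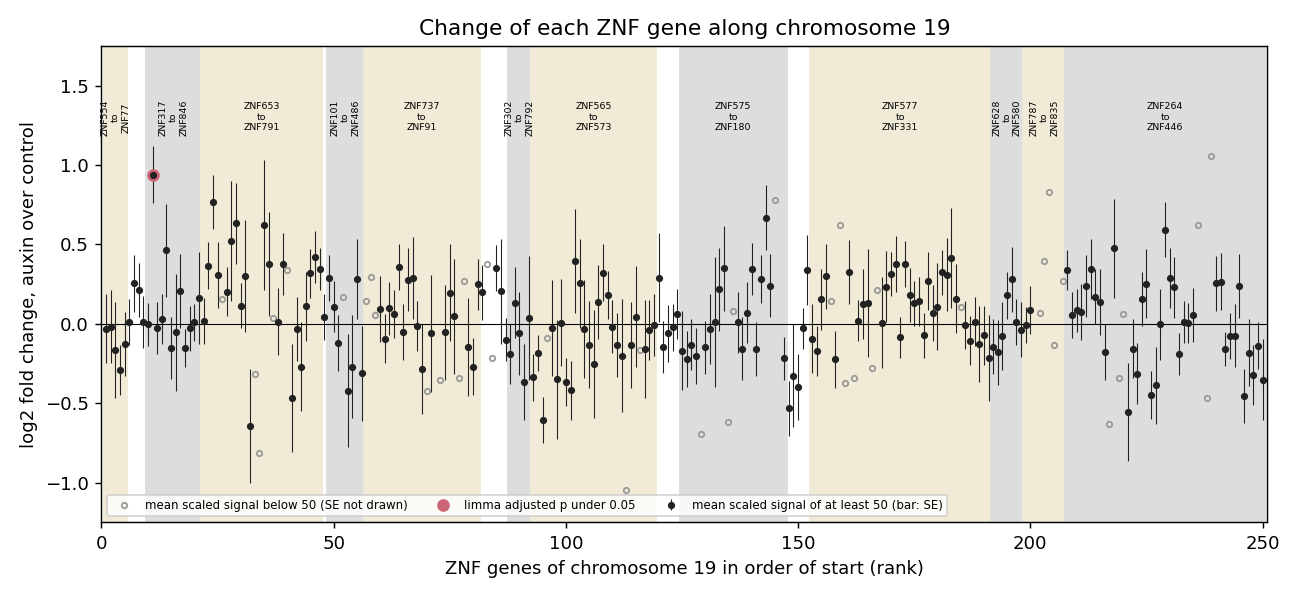
Log2 fold change of each of the 245 tested ZNF genes against its rank along chromosome 19, with the 12 runs shaded and named; bars are standard errors for genes with a mean scaled signal of at least 50. Most points lie within 0.5 of 0; genes from ZNF653 to ZNF791 lie mostly above 0 (20 of 26) and those from ZNF565 to ZNF573 mostly below (20 of 27), and ZNF699 is the coloured point at 0.94.

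Adjacent genes within a run whose spans do not overlap gave 206 pairs. Across these pairs, which share genes and so are not independent, the rank correlation (Spearman's rho) of neighbours' changes was 0.16, and 126 pairs (61.2%) had the same sign. The same measure was -0.013 for control replicate 2 over replicate 1 and 0.23 for auxin replicate 2 over replicate 1, with 65.0% and 61.7% of the same sign. The value between groups thus lay between those of the replicate pairs. Control replicate 2 was lower than replicate 1 over the ZNF genes as a whole (median log2 difference -0.16), which by itself gives neighbours the same sign. Across the 245 genes rho between the log2 fold change and span was 0.036, and between the log2 fold change and mean signal 0.024. Replicate differences had larger values against span, 0.20 in control and 0.29 in auxin. The plot of change against level shows the 2 outer runs over the range of signal.

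**Figure D4:**
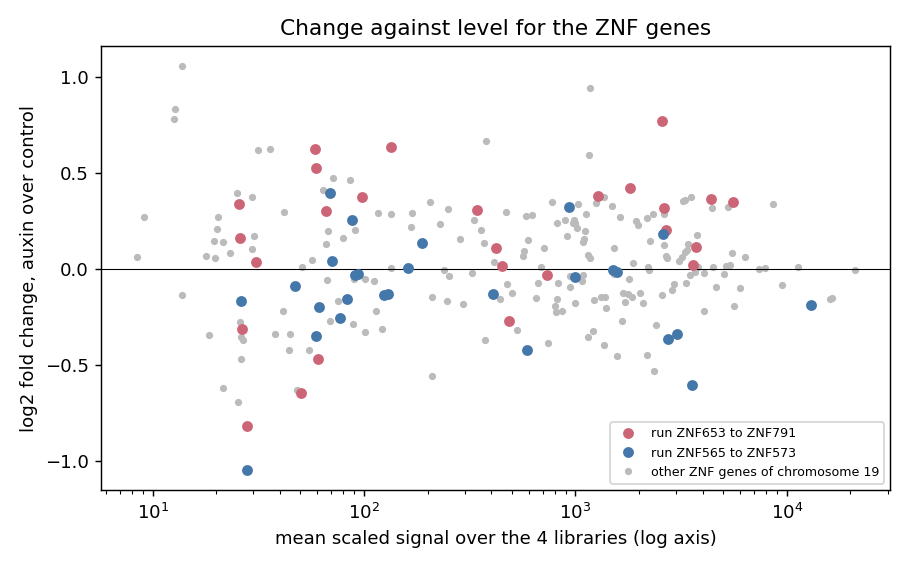
Log2 fold change against mean scaled signal (log axis) for the 245 tested ZNF genes. Genes of the run ZNF653 to ZNF791 whose mean reaches 1000 all lie above 0 (9 of 9), and 1 of 7 such genes of the run ZNF565 to ZNF573 does; at low signal both runs scatter widely.

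Promoters were then read from RefSeq for 218 of the 250 genes (300 bases, from 250 before to 50 after the start), of which 145 start exactly where the table's gene does. CG dinucleotides had a median of 6.67 per 100 bases in these, against 4.67 over all 35116 promoters of the table. That larger set was not limited to protein-coding genes, as the ZNF set is. This comparison and the motif shares below therefore also mix gene types, and none was made within protein-coding genes. The 109 ZNF genes with the higher signal per kb had a median of 7.33 and the 109 with the lower 6. Motifs of several factors were searched on both strands. The ETS motif CCGGAAGT was in 20.2% of the ZNF promoters and 4.14% of all, the SP motif GGGGCGGGG in 25.2% and 15.7%, the NRF1 motif in 3.21% and 1.24%, the YY1 core ATGGCGGC in 5.05% and 3.00% (its longer form, which contains the core, in 0.917% and 0.849%), and the CTCF core motif in 1.83% and 3.36%. The motifs were unevenly spread over the runs. GGGGCGGGG was in 14 of 25 promoters of ZNF653 to ZNF791 and 15 of 32 of ZNF577 to ZNF331, in 0 of 25 of ZNF565 to ZNF573 and in 2 of 40 of ZNF264 to ZNF446. CCGGAAGT was in 22 of 40 promoters of that last run and 1 of 25 of ZNF653 to ZNF791. Among tested genes the median log2 fold change was 0.11 for 55 with GGGGCGGGG and 0.0056 for 159 without it. Outside the run ZNF653 to ZNF791 it was 0.0090 for 41 with the motif and 0.0051 for 148 without. These matches are letters in a window, and draw on no binding data.

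Factors that act with or beside KRAB zinc finger proteins were read from a list of 25 co-repressors and heterochromatin factors. None had an adjusted p under 0.05 by limma. At an unadjusted p under 0.05 there were 7 of 25, all lower with auxin, beside 10.2% of all genes in either direction. These were UHRF1, DNMT1, SUV39H2, RESF1, CBX3, SMARCAD1 and EHMT2, and neither TRIM28 nor SETDB1 was among them. Of the 25, 20 had a log2 fold change below 0, with a median of -0.15 against 0.0089 over all genes. In 12 both auxin libraries were below both control libraries, as in 19.6% of all genes, and in 1, DAXX, they were above, as in 18.6% of all genes. TRIM28, the co-repressor that KRAB domains bind, had 7787 and 8358 in control and 7090 and 6662 in auxin, which is a log2 difference of -0.23 (limma adjusted p = 0.605, SE 0.12). Its auxin values were both lower. SETDB1, which writes H3K9 methylation at their targets, had 6686 and 6200.5 in control and 6406 and 6371 in auxin, with overlapping groups and a log2 difference of -0.011 (limma adjusted p = 0.994, SE 0.13). The lowest adjusted p of the list was that of UHRF1, which helps to maintain DNA methylation, with 23294 and 28004 in control and 13085 and 18341 in auxin (a log2 difference of -0.72, limma adjusted p = 0.0874, SE 0.16); it is named after its value was seen.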

How the data were processed

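EU-seq signal was read from the authors' deposited table. Per the submitters' processing notes, Trimmomatic 0.39, Bowtie2 2.4.5, deepTools 3.5.1 and the builds hg38 and dm6 (fly RNA was added) were named; counting and scaling are not given in the sources used here. Low signal values in a deposited column were spaced by 1 fixed step (100% within 0.1 step), but values of 2 or 3 steps outnumbered those of 1, so steps were not taken as reads. One misspelt control column was read as control replicate 2. Genes reaching a value equivalent to 10 in 2 libraries and a total of 15 were tested. Scaling between libraries used TMM (30% and 5% trimmed), and log2(value + 1) was fitted with limma 3.58.1 in R 4.3.3 (lmFit, eBayes with trend) across all genes, adjusted by Benjamini and Hochberg's method. The procedure was tested on simulated data. Runs, motifs and exact permutations used Python 3.11.15, pandas 2.3.3 and SciPy 1.17.1; plots used matplotlib 3.10.9. Starts in the table count from 0 and are printed 1 higher: all 250 genes then overlap the RefSeq gene of that symbol and 134 share its start. Near-identical paralogues may share reads, 128 of the tested genes overlap another tested gene, and 3 are read-through entries. The genes, lists and tests were chosen with earlier results of these data known. Named genes were those called, the 6 largest rises and falls with a mean of at least 50 and separate groups, the 3 highest and lowest per kb, ZNF91, ZNF274, ZNF43, ZNF208, ZNF83 and ZNF146, and the ends of runs; genes at an unadjusted p under 0.05, and ZNF383, were added within runs after their values were seen. Protein sequences and finger counts were not analysed here. Other scalings, filters, pseudocounts, run gaps, a replicate block and leaving out libraries were tried.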

Additional observations from a re-analysis of the deposited data

How the results depend on the processing

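The count of 1 called ZNF gene was 0 with an adjusted p under 0.01 and on the deposited scale. It was also 0 with no filter on low values and with a pseudocount of 0.1. ZNF699 overlaps another tested gene, so the 117 genes without such an overlap leave it out. Their count of 0 follows from that and is no check of the call. With a library left out the call did not hold in every fit. Log2 fold changes then ran from 0.84 to 1.04 for ZNF699 and from 0.58 to 0.97 for ZNF823. With the replicate number as a block 22 ZNF genes were called (8.98% of 245), 15 higher and 7 lower, among them ZNF699, against 10.8% of all genes. The block also called 7 of the 25 co-repressors and heterochromatin factors, whose count of 0 otherwise held in every setting except without auxin replicate 2, where it was 2 (range 0 to 2). Nothing in the labels ties a number to a batch, and 2 pairs are too few to show pairing; the replicate 2 over 1 differences of the groups had r = 0.231 and rho = 0.306 across genes, and r = 0.462 across genes whose mean reached 50. The blocked fit estimated infinite prior degrees of freedom. The 4 runs with separate groups were 0 on the deposited scale and 6 to 10 with a library left out, where 1 library cannot overlap itself. With gaps of 100 kb and 500 kb, 5 of 13 and 3 of 10 runs had separate groups. Over genes that overlap no other tested gene, 6 of 12 did. ZNF787 to ZNF835 was then higher with auxin (log2 ratio 0.23, 4 genes) and ZNF575 to ZNF180 lower (-0.093, 8 genes). Of the runs whose groups overlapped, ZNF737 to ZNF91 (-0.069), ZNF628 to ZNF580 (-0.069) and ZNF264 to ZNF446 (0.12) then changed sign. The 4 genes left of ZNF787 to ZNF835 had mean signals of only 12.8 to 25.1. ZNF787, with a mean of 20927, drops out, so that ratio says little of the run. The median log2 fold change ran from -0.036 to 0.088 with a library left out and from -0.0061 to 0.049 over scalings. The finger counts planned from protein sequences were not run. With 2 libraries a group, a p above the threshold does not show that a gene kept its level.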

Other observations

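Genes with ZNF names that are not protein-coding, and zinc finger genes of chromosome 19 under other names, were read in the same fit. Of 15 ZNF-named antisense and other non-coding genes tested, 6 were higher and 9 lower with auxin (median log2 difference -0.046), and none had a limma adjusted p under 0.05 or an unadjusted p under 0.05. ZNF561-AS1 had 1763 and 1737 in control and 1950 and 2117 in auxin, and ZNF649-AS1 had 1165 and 1117 against 1019 and 1009, so these antisense genes lay apart in opposite directions. Of 11 ZNF-named pseudogenes tested, 5 were higher and 6 lower, none had an adjusted p under 0.05 and 1 of 11 had an unadjusted p under 0.05, near the 10.2% of all genes: ZNF812P, with 27.1 and 30.7 in control and 54.4 and 50.5 in auxin (a log2 difference of 0.84, limma adjusted p = 0.468, SE 0.37). Of 16 protein-coding genes named ZFP, ZSCAN, ZIM or ZBTB that were tested, 9 were higher and 7 lower, with a median of 0.020. None had an adjusted p under 0.05, and 2 of 16 had an unadjusted p under 0.05, also near that share, both higher: ZSCAN5A, with 6679 and 6298 in control and 7500 and 8446 in auxin, and ZFP36, an RNA-binding zinc finger protein that destabilises AU-rich messages, with 3089 and 3264 in control and 3809 and 4507.5 in auxin (limma adjusted p = 0.466 and 0.376). These genes were picked by their names, and the examples after their values were seen.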
